A study of Homo sapiens with 7 samples.

Results

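The regions described here are distal stretches of chromatin that carried both H3K4me1 and H3K9Ac in HCT116 cells, a human colorectal carcinoma line. They were chosen by measured values: an H3K4me1 interval was a member where it lay more than 5 kb from every protein-coding transcription start site (TSS) on hg19, overlapped an H3K9Ac interval under 10 kb wide and overlapped no interval of H3K4me3 or H3K36me3. Of 50521 H3K4me1 intervals, 9969 were members (19.7%), and together they covered 24.8 Mb. In the study, untreated HCT116 cells were grown to 200000 cells per well, crosslinked and sheared for 6 min in 100 µL on the 96-well PIXUL sonicator. Chromatin from a single well was used for each immunoprecipitation, so each mark has 1 library and nothing below has a replicate check. Peak lists of H3K4me1, H3K4me3, H3K9Ac, H3K27me3, H3K36me3 and CTCF were used, and H3K27Ac was not analysed here. The word active in the name given to these regions therefore rests on H3K9Ac alone.

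Enhancers are stretches of DNA that bind transcription factors and raise the transcription of genes that may lie far away. Their flanking nucleosomes carry H3K4me1, and acetylation of histone H3, at lysine 9 among other residues, is usual at enhancers in use. H3K4me3 marks promoters and H3K36me3 marks the bodies of transcribed genes, and the rule left out regions where a peak of either was called. A region without such a peak can still lie inside a gene. AP-1, a pair of FOS and JUN family proteins, is a common factor at enhancers of epithelial cells. Its word was searched here as TGANTCA, where N is any base, so TGATTCA counted as well as TGACTCA and TGAGTCA. The zinc finger protein CTCF sits at insulators and at the anchors of chromatin loops.

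The cell type was checked by H3K4me3 within 1 kb of a TSS. Of 10 epithelial markers 9 had such an interval (EPCAM, CDH1, KRT8, KRT18, KRT19, CLDN3, CLDN4, CLDN7 and ELF3), and VIL1, a protein of the intestinal brush border, had none. Of 5 blood markers 0 had one, and 0 of 3 hepatocyte markers. COL1A1 alone of 5 fibroblast markers and SYP alone of 3 neuronal markers had one. Of the endothelial markers, CDH5 and KDR had none and PECAM1 was not matched in the annotation.

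Sequence at the AP-1 word is shown first, because this word was densest at the middle of the members, as it was at the middle of the distal H3K4me1 intervals without H3K9Ac. The 5 members with the highest H3K9Ac fold enrichment that hold the word within the overlap of both intervals and outside exons, leaving out chromosomes 8 and Y, were taken, and the 4 shown lie nearest to DLGAP1, ANO1, SPDYE13 and NR2F1. Each line gives the bases around the word on the hg19 plus strand, 5′ to 3′, with the AP-1 word in capitals.
DLGAP1, chr18:3664277-3664397: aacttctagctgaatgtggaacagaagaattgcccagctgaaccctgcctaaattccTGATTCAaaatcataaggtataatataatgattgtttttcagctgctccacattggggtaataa
ANO1, chr11:69794776-69794896: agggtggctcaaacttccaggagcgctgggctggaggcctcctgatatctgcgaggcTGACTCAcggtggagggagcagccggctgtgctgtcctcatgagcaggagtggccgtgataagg
SPDYE13, chr7:74651289-74651409: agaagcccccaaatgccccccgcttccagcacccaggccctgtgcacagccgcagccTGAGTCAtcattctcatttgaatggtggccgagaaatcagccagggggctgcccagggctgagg
NR2F1, chr5:92497372-92497492: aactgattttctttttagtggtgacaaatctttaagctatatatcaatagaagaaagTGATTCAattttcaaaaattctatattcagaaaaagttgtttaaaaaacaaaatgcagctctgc

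The ANO1 member is the one of those shown in which the word sat at the centre of the acetylation. Its word lay 7 bp from the middle of the H3K9Ac interval, and the overlap held 4 such words. In the other three shown the word lay 1774 bp (DLGAP1), 1035 bp (SPDYE13) and 927 bp (NR2F1) from that middle. SPDYE13 belongs to a multigene family with near-identical copies, and its H3K9Ac interval also overlaps an H3K4me3 interval outside the member. The reads behind that interval could belong to other copies. The DLGAP1 member lies in an intron, and those at ANO1 and NR2F1 lie in no annotated gene.

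A further pair of sequences is shown because the genes KLF5 and KLF4, which encode transcription factors of the intestinal epithelium, had many members around them; this pair was chosen after their values were seen. Both are from the member with the highest H3K9Ac fold enrichment next to the gene that holds the word in the overlap and outside exons.
KLF5, chr13:73664756-73664876: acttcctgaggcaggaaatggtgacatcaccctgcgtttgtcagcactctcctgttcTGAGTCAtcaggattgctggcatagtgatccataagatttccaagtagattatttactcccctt
KLF4, chr9:110513071-110513191: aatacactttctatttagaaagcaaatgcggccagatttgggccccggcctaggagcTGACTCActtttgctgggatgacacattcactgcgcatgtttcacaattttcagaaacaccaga

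The KLF5 word lay 187 bp and the KLF4 word 42 bp from the middle of the H3K9Ac interval. Neither stretch lies in an annotated gene. The KLF5 member had an H3K4me1 fold enrichment of 8.28 and an H3K9Ac fold enrichment of 5.17, and the KLF4 member 5.99 and 5.59.

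CTCF cores are shown for the 3 members whose CTCF interval had the highest fold enrichment and held an exact core. Each line gives 61 bases of the hg19 plus strand with the 12 bases of the core in capitals.
TMEM235, chr17:76247098-76247158: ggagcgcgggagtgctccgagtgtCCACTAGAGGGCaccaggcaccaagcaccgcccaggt
ZFPM1, chr16:88509566-88509626: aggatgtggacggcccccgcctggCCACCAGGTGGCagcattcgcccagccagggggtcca
SMUG1, chr12:54608635-54608695: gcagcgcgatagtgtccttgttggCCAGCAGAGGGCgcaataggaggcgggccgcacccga

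The CTCF fold enrichment at these was 33.3 (TMEM235), 28.6 (ZFPM1) and 27.6 (SMUG1). In each the core lay near the middle of the CTCF interval, at 10, 18 and 93 bp from it. These members lay 18675, 9329 and 25552 bp from the nearest protein-coding TSS.

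The rule narrowed the H3K4me1 list in steps. More than 5 kb from a coding TSS lay 30300 intervals, of which 27449 overlapped no H3K4me3 and 24118 neither H3K4me3 nor H3K36me3. Of those, 10010 overlapped H3K9Ac, 41 of them only through an interval of 10 kb or more, and 14 members also touched such a wide interval. The other 14108 had no H3K9Ac and are the set that the members are compared with. Just inside the distance limit lay an interval 5003 bp from VPS13C and just outside it one 4997 bp from ERMP1. The widest H3K9Ac interval inside the width limit measured 9981 bp and the narrowest outside it 10013 bp.

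The members were wider and more enriched in H3K4me1 than the distal intervals without H3K9Ac. Because both lists chose the members, these values are a description with no test. The H3K4me1 interval of a member had a median width of 1887 bp (quartiles 1139 and 3103), against 799.5 bp (513 and 1222) without H3K9Ac and 1341 bp over all H3K4me1 intervals. The median H3K4me1 fold enrichment, a linear ratio over the background of the peak caller, was 4.55 (quartiles 3.85 and 5.48) in members, 3.51 (3.20 and 3.96) without H3K9Ac and 4.02 in all. The ranges overlapped, from 1.45 to 14.3 in members and from 1.24 to 8.35 without H3K9Ac.

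**Figure D1:**
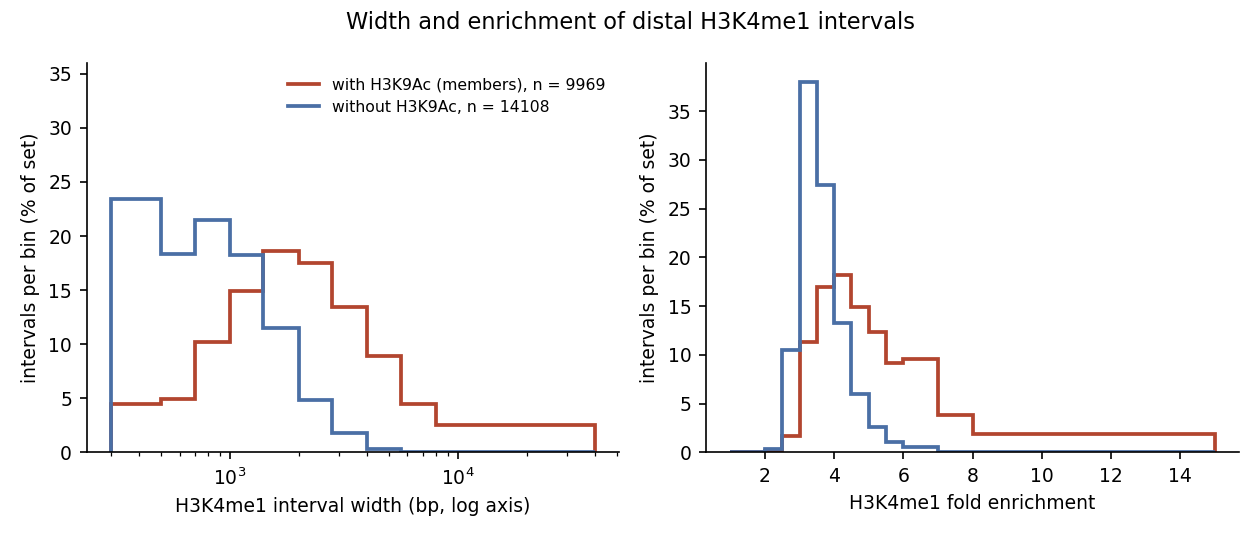
Share of distal H3K4me1 intervals (% of each set, y axis) in bins of interval width (left, bp on a log axis) and of H3K4me1 fold enrichment (right), for the 9969 members (red) and the 14108 intervals without H3K9Ac (blue). The members lie to the right in both panels, with medians of 1887 against 799.5 bp and of 4.55 against 3.51, and the 2 sets overlap.

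Acetylation at the members was weak beside that at promoters. The H3K9Ac interval of a member, taken as the one with the highest fold where there were several, had a median fold enrichment of 3.27 (quartiles 2.93 and 3.78). Over all 34164 H3K9Ac intervals the median was 4.16, and over the 12846 within 1 kb of a coding TSS it was 11.8. Its median width was 1075 bp at members and 2787 bp at the TSS. For H3K9Ac the study's methods require a fold enrichment over 5 together with a q-value under 1e-10, and 108 members (1.08%) had an interval past both limits, against 37.2% of all H3K9Ac intervals. A q-value below 1e-3 was reached by 3387 members (34.0%). For H3K4me1, where the limits are 1e-3 and 2, 81.4% of members and 38.2% of the distal intervals without H3K9Ac passed. Both marks passed in 95 members.

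In distal intervals that the rule left out because of another mark, H3K9Ac was as high or higher. The 2726 distal intervals with H3K9Ac and H3K4me3 had a median H3K9Ac fold enrichment of 6.30, and the 1747 with H3K9Ac and H3K36me3 but no H3K4me3 had 3.38. The median GC content of the middle 500 bp was 46.6% in members, 46.0% without H3K9Ac and 55.4% in the distal intervals with H3K4me3.

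The 2 marks of a member sat close together. A single H3K9Ac interval overlapped 95.4% of the members, and 62.9% of the members held an H3K9Ac interval whole. H3K9Ac covered a median of 57.8% of the H3K4me1 interval, and the middles of the intervals lay a median of 238 bp apart. Across the 9969 members, Spearman's rho was 0.44 between the H3K4me1 and the H3K9Ac fold enrichment and 0.58 between the 2 widths. These points come from the same 2 libraries, and each interval's width and fold share its reads.

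The highest H3K9Ac values among the members belonged to intervals that reached beyond the member. Of the 8 members with the highest H3K9Ac fold enrichment, 7 had an H3K9Ac interval that also overlapped an H3K4me3 interval outside the member. Next to SLC25A39, a mitochondrial carrier, the H3K9Ac fold enrichment was 19.2, but only 381 bp of that 8519 bp interval lay in the member (chr17:42408360-42409246), which overlaps an exon of a lncRNA. The others near PPIAL4C (13.5), AC135983.2 (13.3), OCM2 (12.03), CRLF3 (11.5), RP13-996F3.4 (11.2) and ERV3-1 (11.2) were members of 302 to 902 bp that shared between 242 and 461 bp with the H3K9Ac interval. Several lie at copied genes or pseudogenes (PPIAL4C, WHAMMP1, CCT6P3), where the assignment of reads between copies is uncertain. The member in an intron of DLGAP1, a scaffold protein of the synapse, was the exception: it measured 9392 bp (chr18:3663604-3672995), had an H3K9Ac fold enrichment of 11.8 and an H3K4me1 fold enrichment of 6.79, and shared 5027 bp with its H3K9Ac interval.

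Over all members such reach was rare. Of the 9969, 56 (0.562%) had an H3K9Ac interval that overlapped H3K4me3, against 20 of the 100 with the highest H3K9Ac fold enrichment. Without the members any of whose H3K9Ac intervals overlapped H3K4me3, 9913 remained, with a median H3K9Ac fold enrichment of 3.26. Apart from DLGAP1, the highest of them, named after their values were seen, were ANO1 (9.84), encoding a chloride channel, NR2F1 (9.33), encoding a nuclear receptor, and AZIN1 (9.30), encoding an inhibitor of antizyme. They measured 5688, 7164 and 10610 bp, and the whole H3K9Ac interval lay inside each.

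The highest H3K4me1 values were not the highest H3K9Ac values. The top member by H3K4me1 fold enrichment, 14.3, lay in EXD3 and nearest to the TSS of NRARP, which encodes a regulator of Notch signalling (chr9:140204680-140207458), and its H3K9Ac fold enrichment was 5.34. The member near CTDP1, a phosphatase of RNA polymerase II, had 14.0 for H3K4me1 and 2.80 for H3K9Ac, below the members' median of 3.27. The members near SEPTIN9 (13.5), C8orf90 (12.8) and GSE1 (11.5) had H3K9Ac fold enrichments of 7.55, 6.04 and 5.05. The widest member, 37592 bp near SMURF2, an E3 ubiquitin ligase of TGF-beta signalling (chr17:62674037-62711628), had its H3K9Ac over 5199 bp of that length. The member farthest from a coding TSS lay 2284972 bp from ARAP2, in a lncRNA gene, with fold enrichments of 4.22 for H3K4me1 and 4.21 for H3K9Ac.

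CTCF, which the rule did not use, overlapped members more often than the distal intervals without H3K9Ac. A CTCF interval overlapped 2844 members, or 28.5% (95% Wilson interval 27.7 to 29.4), and 14.0% (13.5 to 14.6) of the intervals without H3K9Ac. The difference was 14.5 percentage points (95% interval 13.5 to 15.6). Over all distal H3K4me1 intervals the share was 22.8%. Over the whole list, promoters included, 13642 of 50521 intervals (27.003%) overlapped CTCF, near the share of the members. Among distal intervals with H3K9Ac that the rule left out, it was 51.8% with H3K4me3 and 22.4% with H3K36me3 but no H3K4me3. CTCF overlap was therefore not particular to the members. The 95% intervals cover counting error only, and a single library per mark allows no test.

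The difference was present in each width class from 300 to 5000 bp, and it was largest in narrow intervals. Between 300 and 700 bp, 56.5% (53.3 to 59.6) of 935 members and 17.6% (16.6 to 18.6) of 5896 intervals without H3K9Ac overlapped CTCF. Between 1000 and 1500 bp the shares were 27.8% and 9.35%, and between 2000 and 3000 bp they were 19.6% (17.9 to 21.4) and 11.7% (9.60 to 14.2). Per length the order turned, since members are wider: 117 CTCF overlaps per Mb in members, 145 without H3K9Ac and 133 in all H3K4me1 intervals.

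**Figure D2:**
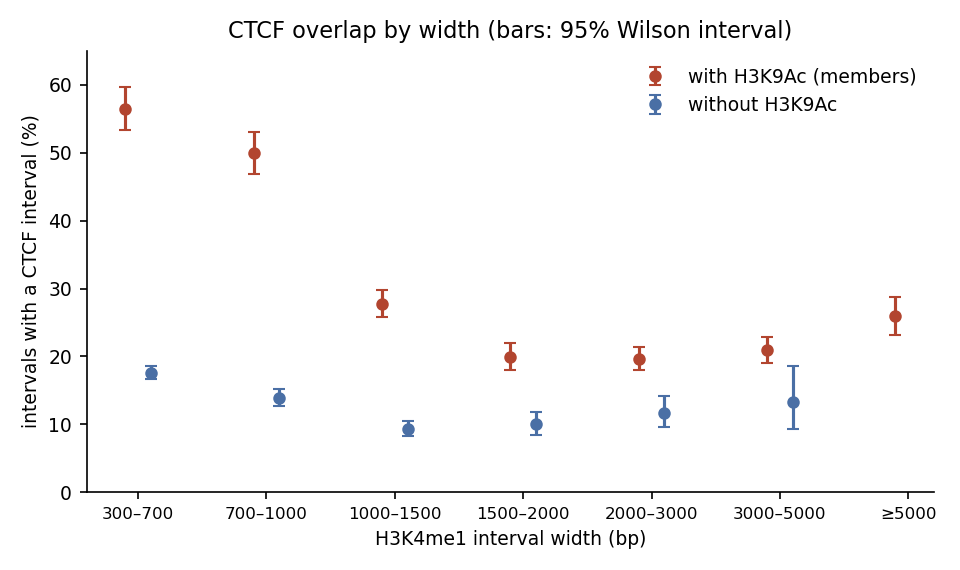
Share of distal H3K4me1 intervals that overlap a CTCF interval (%, y axis) by width of the H3K4me1 interval (bp, x axis), for members (red) and intervals without H3K9Ac (blue); points are shares, bars are 95% Wilson intervals, and classes under 20 intervals are not drawn. Members lie above in every class drawn for both, from 56.5% against 17.6% at 300 to 700 bp to 20.9% (19.03 to 22.9) against 13.3% (9.30 to 18.7) at 3000 to 5000 bp.

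CTCF intervals at members were also higher. Their median fold enrichment was 10.8 (quartiles 6.78 and 14.8), against 9.45 at the distal intervals without H3K9Ac and 7.15 over all 44812 CTCF intervals. The exact core was found in 19.5% (18.1 to 21.0) of the 2904 CTCF intervals at members, in 20.01% (18.3 to 21.8) of those at intervals without H3K9Ac, and in 15.7% of all. Within a member the middle of the CTCF interval lay a median of 309 bp from the middle of the H3K4me1 interval.

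H3K27me3, the mark of Polycomb repression, was seldom found in either set. The list is labelled HCT116, but its peak names carry HTON where those of the other lists carry HCT116, so its origin is uncertain and so are the values that follow. It overlapped 368 members, or 3.69% (3.34 to 4.08), and 4.28% (3.96 to 4.63) of the intervals without H3K9Ac, beside 3.96% of all distal H3K4me1 intervals and 4.04% of the whole list, so the share of the members was near the background. With H3K27me3 peaks past the limits of the methods alone, the share of members was 0.421% (0.312 to 0.569). Per length it was sparser in members, with 16.3 overlaps per Mb against 45.1, a measure that falls as intervals widen, and members are wider. Among intervals 1000 to 2000 bp wide the difference in share was -1.48 percentage points (95% interval -2.32 to -0.62).

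AP-1 words crowded at the middle of the intervals, with H3K9Ac and without. Counted on both strands, TGANTCA occurred 1.05 times per kb within 100 bp of the middle of the H3K9Ac interval, 0.61 times per kb at 400 to 500 bp and 0.32 times per kb at 1500 to 2000 bp. Around the middle of the H3K4me1 interval it went from 1.04 to 0.33 per kb in members and from 1.27 to 0.31 per kb in the distal intervals without H3K9Ac, so the central density was not particular to acetylated stretches. The word made of the same letters in reverse order, ACTNAGT, stayed between 0.23 and 0.25 per kb around the middle of the H3K9Ac interval. There the CTCF core fell from 0.0613 to 0.00603 per kb. The TCF/LEF word ATCAAAG, bound by the factors of Wnt signalling, went from 0.168 to 0.142 per kb. The TEAD word ACATTCC, bound by the factors of the Hippo pathway, went from 0.204 to 0.139, and the RUNX word TGTGGTT from 0.243 to 0.194. These words also fell around the H3K4me1 middle of the intervals without H3K9Ac. In those intervals the CTCF core went from 0.0430 to 0.00298 per kb and TCF/LEF from 0.188 to 0.138. TEAD went from 0.234 to 0.142 and RUNX from 0.267 to 0.190. A match is a stretch of letters and does not show that a factor was bound.

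**Figure D3:**
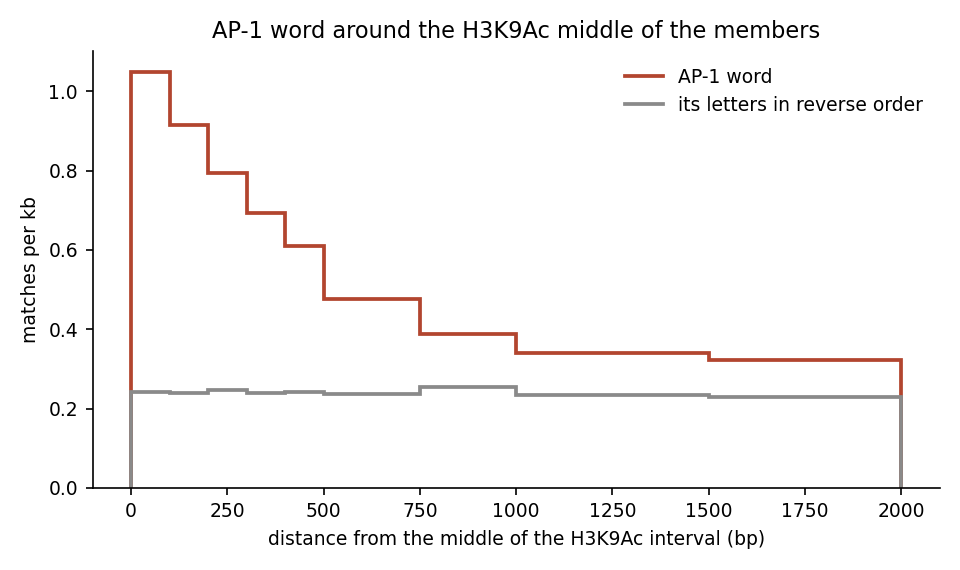
Matches per kb (y axis) by distance from the middle of the H3K9Ac interval (bp, x axis, both sides together) over 9946 members, for the AP-1 word (red) and its letters in reverse order (grey). The AP-1 word falls from 1.05 to 0.32 per kb, and the reversed word stays between 0.23 and 0.25.

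Over all widths, members held the AP-1 word less often than distal intervals without H3K9Ac in a window of fixed size, and the order turned with width. In the middle 500 bp of the H3K4me1 interval, 36.2% (35.3 to 37.2) of members held it, 42.4% (41.6 to 43.2) of the intervals without H3K9Ac, and 36.5% of all distal H3K4me1 intervals, a background the members nearly match. Over the whole list, which includes promoters, it was 28.3%. The reversed word was found in 11.5%, 12.3% and 10.3%. The difference of -6.17 percentage points (95% interval -7.41 to -4.92) turned with the choice of window and width. It was 16.0 points (14.8 to 17.2) when the whole interval was searched, where wide members offer more sequence, and 0.33 points (-1.94 to 2.59) among intervals 1000 to 2000 bp wide, a class that joins opposite orders. In the middle 500 bp, 24.9% (22.3 to 27.8) of members and 41.2% (39.995 to 42.5) without H3K9Ac held the word at widths of 300 to 700 bp, and 45.7% (43.4 to 47.98) and 48.1% (46.3 to 49.9) at 1000 to 1500 bp. Members were above at 1500 to 2000 bp, with 46.3% (43.8 to 48.8) against 39.7% (36.9 to 42.4), and at 2000 to 3000 bp, with 39.5% (37.5 to 41.7) against 29.7% (26.6 to 33.04). At 3000 to 5000 bp the shares were 28.4% (26.3 to 30.6) and 21.2% (16.1 to 27.3), with intervals that overlap. For intervals under 500 bp the window reaches past the interval.

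Over all widths, intervals with CTCF held the AP-1 word less often than intervals without it. Of members with a CTCF interval, 22.2% (20.7 to 23.8) held the AP-1 word in the middle 500 bp, and of those without one 41.8% (40.7 to 43.0). In the intervals without H3K9Ac the shares were 23.5% (21.7 to 25.4) and 45.5% (44.6 to 46.4). The gap was wide in narrow members, with 15.2% (12.3 to 18.5) against 37.6% (33.0 to 42.4) at 300 to 700 bp and 22.6% (19.2 to 26.5) against 54.5% (51.8 to 57.2) at 1000 to 1500 bp. In intervals with neither H3K9Ac nor CTCF the shares in the same classes were 45.7% (44.3 to 47.1) and 49.7% (47.8 to 51.6). Among intervals without CTCF, members thus lay below at 300 to 700 bp and above at 1000 to 1500 bp. At 3000 to 5000 bp the intervals overlapped, 24.7% (20.5 to 29.5) against 29.4% (27.01 to 31.9). Without H3K9Ac the order turned in this class, with 25.9% (13.2 to 44.7) against 20.5% (15.2 to 27.01), and these intervals overlap too.

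**Figure D4:**
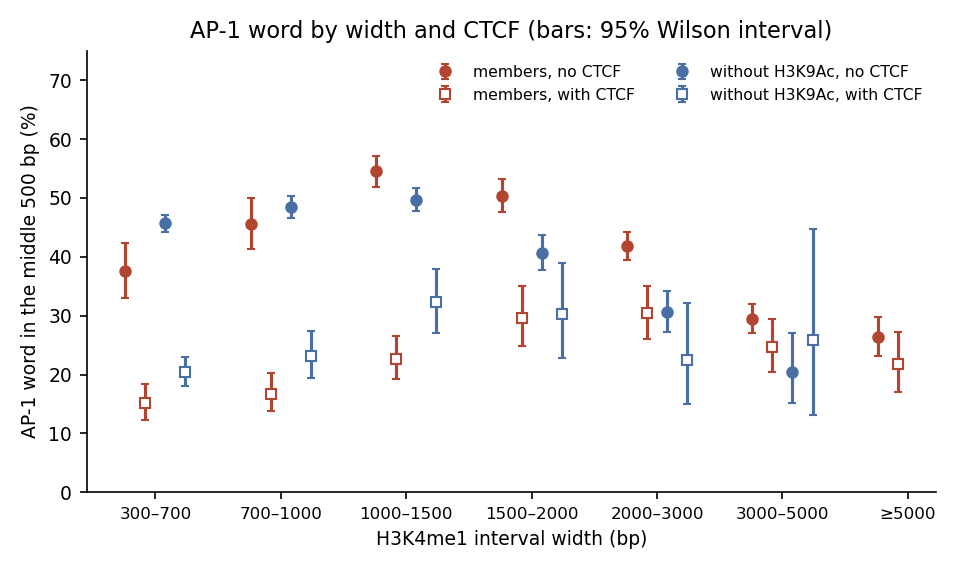
Share of distal H3K4me1 intervals with the AP-1 word in the middle 500 bp (%, y axis) by width (bp, x axis), for members (red) and intervals without H3K9Ac (blue), with a CTCF interval (open squares) and without one (filled circles); bars are 95% Wilson intervals, and classes under 20 intervals are not drawn. Among members 1000 to 1500 bp wide, 54.5% of those without CTCF and 22.6% of those with CTCF held the word.

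The AP-1 and CTCF shares moved in opposite directions along the fold enrichment. Members were ranked by H3K4me1 fold enrichment into 5 equal groups. From the lowest to the highest group the AP-1 share went from 28.5% to 40.6% and the CTCF share from 38.0% to 24.5%. Ranked by H3K9Ac fold enrichment instead, the AP-1 share went from 40.7% to 34.1% and the CTCF share from 24.4% to 34.3%. The median width rose from 1031.5 to 2886 bp along the first ranking and from 1444.5 to 2933.5 bp along the second, and the part of width in these shares was not tested.

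Of the other words searched in the middle 500 bp, few differed between the sets by more than 1 percentage point. The E-box CACGTG was in 7.27% of members and 5.90% of intervals without H3K9Ac, a difference of 1.37 points (0.73 to 2.02). The ETS word CCGGAAG was in 2.94% and 2.16%, and the CTCF core in 2.59% and 1.72%. The CDX word TTTATNG, for the homeobox factors of intestinal identity, was in 23.3% and 24.8%, a difference of -1.53 points (-2.62 to -0.43). The interval of the difference held 0 for the TCF/LEF word, for TGTTTAC of the FOX factors, for AGATAAG of the GATA factors, for CAAAGTCC of HNF4, for TGTGGTT of the RUNX factors and for the cyclic AMP element TGACGTCA. The TEAD word was at -0.77 points (-1.51 to -0.01) and the KLF word GGGTGTGG at -0.996 points (-1.71 to -0.27). The reversed AP-1 word, searched for comparison only, was at -0.86 points (-1.68 to -0.02), so differences of this size are not particular to words of factors. Words other than AP-1 and its reverse were not compared within width classes.

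The members and the distal intervals without H3K9Ac lay inside coding genes at similar shares when all deposited peaks were used. The middle of 46.9% of the members was inside a protein-coding gene, against 46.8% without H3K9Ac, a difference of 0.06 points (-1.21 to 1.34). With the limits of the methods in every list both sets were redefined, since weak H3K4me3 and H3K36me3 peaks no longer excluded a region. Of the 479 regions then chosen, most of them not among the members above, 33.6% were inside a coding gene, a difference of -16.5 points (-20.6 to -12.1). Introns held 44.1% of the members, coding gene exons 2.77%, lncRNA genes alone 15.03% and no annotated gene 36.8%. The 5′ end of a non-coding gene lay inside 5.25% (4.83 to 5.70) of members and 2.17% (1.94 to 2.42) of the narrower intervals without H3K9Ac. The median distance to the nearest coding TSS was 32950 bp in members and 36110.5 bp without H3K9Ac.

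The gene with the nearest TSS had H3K4me3 within 1 kb of a TSS for 77.2% (76.4 to 78.0) of members and 74.3% (73.5 to 74.99) of intervals without H3K9Ac. Of all genes, 63.98% had it. That last share counts each gene once, while the shares of intervals count a gene once for each interval nearest to it, so they are unlike measures. The difference between members and intervals without H3K9Ac, 2.95 points (1.85 to 4.04), was 0.10 points (-1.85 to 2.04) among intervals 1000 to 2000 bp wide. It was 0.14 points (-4.01 to 3.91) with the limits in every list, which redefine both sets. Beyond 200000 bp the share was 72.7% (69.4 to 75.7) in members. By chromosome the density ran from 1.13 members per Mb on X to 6.19 on chromosome 17, leaving out Y. Members were 16.9% of the H3K4me1 intervals on chromosome 17 and 19.5% on X, beside 19.7% over the genome. The density thus did not follow this share. On chromosome 14 members made up 48.9% (45.4 to 52.3) of the 2 sets together, where 41.4% did over the genome.

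Most members stood alone. Joined across gaps of up to 12.5 kb, they formed 8108 groups, of which 6738 held 1 member and 337 held 3 or more. Those 337 contained 1165 members (11.7%). The group with the most, 11 members over 101799 bp (chr10:21561083-21662881), lay nearest to NEBL, encoding an actin-binding protein, and SKIDA1. Its H3K9Ac fold enrichments ran from 2.89 to 5.65, and 2 of its members overlapped CTCF. Groups of 8 near ABTB2 and NAT10 and of 7 within RAD51B held no CTCF, while 4 of 7 members near AP1S3 and SCG2 and 4 of 6 near TOM1L2 did.

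Some genes had many members closest to their TSS. The nearest gene is a position, and no contact with it was measured. These counts were not divided by gene length. RAD51B, which encodes a protein of homologous recombination, had 36 members beside 13 intervals without H3K9Ac. All 36 lay inside this long gene (chr14:68286496-69196935). The H3K9Ac fold enrichment of these 36 ran up to 6.55 with a median of 3.57, and 5 overlapped CTCF. GSE1, a subunit of a histone deacetylase complex, had 24 members and 15 intervals without H3K9Ac, and SLC39A11, a zinc transporter, 16 and 13. PARD3, a polarity protein of epithelial junctions, had 16 and 17, and GRIN2B, a glutamate receptor subunit, 14 and 9. SCG2, which encodes a secretory granule protein, had 13 members and 4 intervals without H3K9Ac, and no H3K4me3 at its own TSS. ZBED1 had 18, of which 8 lay on X and 10 on Y; the gene lies in the pseudoautosomal region, whose copies are identical, so these are uncertain.

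KLF5, a transcription factor of proliferating intestinal epithelium, had 17 members and 8 intervals without H3K9Ac. They lay between 21261 and 405985 bp from its TSS, 14 of them outside the annotated gene bodies of coding genes. Their H3K4me1 fold enrichments had a median of 4.39 and a highest value of 8.28, and their H3K9Ac fold enrichments a median of 3.39 and a highest of 5.17. The member with both highest values lies 30194 bp from the TSS, at chr13:73663337-73667645, and holds the KLF5 sequence printed above. None of the 17 overlapped CTCF, and 6 held the AP-1 word in the middle 500 bp. Around KLF4, 13 members lay between 8252 and 608808 bp away, with H3K9Ac fold enrichments up to 5.59, and 5 of them overlapped CTCF. KLF4 also had 8 intervals without H3K9Ac.

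**Figure D5:**
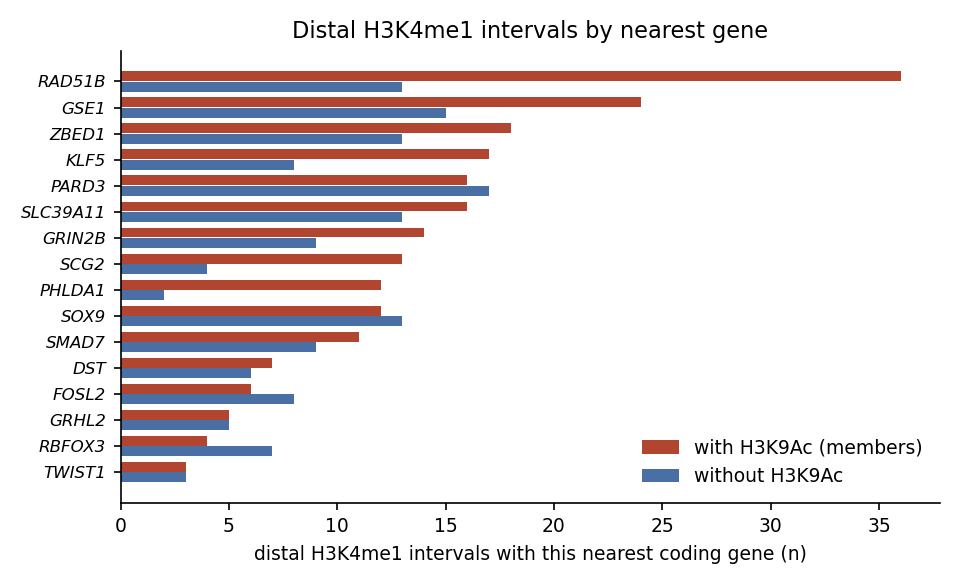
Number of distal H3K4me1 intervals (x axis) whose nearest protein-coding gene is the one named (y axis), with H3K9Ac (members, red) and without (blue), for the 8 genes with the most members and the leading gene of each gene list. RAD51B had 36 members and 13 intervals without H3K9Ac, KLF5 17 and 8, and PHLDA1 12 and 2.

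Genes of named pathways were then looked up. Over the annotation, 5038 of 19821 genes with a coding TSS (25.4%) were nearest to at least 1 member, and this share depends on how much sequence without genes surrounds each one. Set against that share, 12 of 19 Wnt target genes were nearest to a member, 12 of 19 EGF ligands and MAPK outputs, 10 of 14 adhesion genes, 11 of 15 epithelial genes, 9 of 10 mesenchymal genes, 7 of 15 intestinal factors, 10 of 14 TGF-beta genes and 4 of 11 AP-1 factors. Of 14 genes of other lineages, 4 were. The mesenchymal list also lay above the background, so a high count was not particular to epithelial genes. A measure that does not rise with the space around a gene is the share of members among members and intervals without H3K9Ac, which was 41.4% over the genome. It was 53.4% (44.4 to 62.1) for the TGF-beta list and 37.7% (29.8 to 46.3) for the Wnt list, and the intervals of the other lists, from 41.5% for adhesion to 47.8% for intestinal factors, all held 41.4%. Members near 1 gene are not independent, so these intervals are too narrow.

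Within the Wnt list, SOX9, a transcription factor of crypt cells, had 12 members and 13 intervals without H3K9Ac. Its members had H3K9Ac fold enrichments up to 6.29 and lay 29357 bp or more from the TSS. MYC, the growth regulator, had 11 members and 22 intervals without H3K9Ac, with H3K9Ac no higher than 3.96. DKK1, a secreted Wnt inhibitor, had 8 members and 7 intervals without H3K9Ac, and AXIN2, a feedback inhibitor of beta-catenin, 5 and 7. LGR5, LEF1 and TCF7 had 0 members, beside 1, 4 and 1 intervals without H3K9Ac.

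In the EGF and MAPK list, PHLDA1, a gene induced by growth factors, stood apart with 12 members and 2 intervals without H3K9Ac. Their H3K9Ac fold enrichments reached 4.36 and they lay between 32285 and 240649 bp from the TSS. The phosphatase gene DUSP4 had 7 members and 10 intervals without H3K9Ac. SPRED2 and SPRY4, inhibitors of the pathway, had 6 and 5 members beside 10 and 11 intervals without H3K9Ac. Among the AP-1 factors, FOSL2 had 6 members with H3K9Ac up to 6.10, beside 8 intervals without H3K9Ac. JUN had 4 members beside 3 such intervals, ATF3 2 beside 2 and FOS 1 beside 2, while FOSL1, JUNB and JUND had 0 members.

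In the TGF-beta list the members were spread over inhibitors, ligands and a receptor. The inhibitor genes SMAD7 and SMAD6 had 11 and 10 members, the ligand genes BMP4 and TGFB2 had 10 each, and the receptor gene TGFBR2 had 9. In the same order, their intervals without H3K9Ac numbered 9, 5, 5, 4 and 8. The highest H3K9Ac fold enrichments of the members near these genes lay between 4.76 (TGFBR2) and 5.63 (BMP4). TGFB1, TGFBR1 and SKIL had 0 members.

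Of the intestinal factors other than KLF5 and KLF4, TCF7L2, the Wnt effector of the intestine, had 6 members and 13 intervals without H3K9Ac. HNF4A had 2 and 1. CDX1, CDX2 and ISX had 0 members. Of the adhesion genes, DST, a linker of the cytoskeleton, had 7 members and 6 intervals without H3K9Ac. The collagen receptor subunit ITGA2 had 3 and 2, and ITGB1 2 and 2. Of the epithelial genes, the transcription factor gene GRHL2 had 5 members and 5 intervals without H3K9Ac. The tight junction gene TJP1 had 4 and 5, the desmosome gene DSP 3 and 1, and ELF3 2 and 1. Of the mesenchymal genes, TWIST1 had 3 members and 3 intervals without H3K9Ac, COL1A1 2 and 0, CDH2 2 and 6, and ZEB1 2 and 2. The member with the highest H3K4me1 fold enrichment next to COL1A1 reached 10.3. Of the other lineages, RBFOX3, a neuronal splicing factor gene, had 4 members and 7 intervals without H3K9Ac. MYOD1 had 2 and 0, PTPRC 1 and 2, and NKX2-5 1 and 0.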

How the data were processed

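Lists of broad peaks that were deposited for 6 PIXUL-ChIP-seq libraries of HCT116 cells, each for a different antibody named in the labels, were used. The labels give HCT116 for all of them, but the peak names of the H3K27me3 list carry HTON. Reads were aligned by the authors to hg19 with BWA 0.7.12, and MACS2 called broad peaks (broad cutoff 0.1). The submitters' processing notes also name MACS 1.4.2, SAMtools 0.1.19 and bcl2fastq 2.20.0.442. The fold enrichment that the authors deposited is a linear ratio for the whole peak, and so are the deposited −log10 p-value and −log10 q-value. The deposited score column was not used. The lists are not filtered by the limits of the methods, and they were used whole. Libraries were called separately. The depth is unknown, and the number, width and overlap of called peaks vary with it.

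Overlaps required 1 bp. TSS were the 78703 of the protein-coding transcripts of 19821 genes in GENCODE 44 lifted to hg19. Words were searched on both strands of the reference. Of the members, 14 on Y held masked bases and were left out of the word counts. Shares carry 95% Wilson intervals and differences Newcombe intervals, for counting error only. The named regions were the 8 members with the highest H3K9Ac, the 5 with the highest H3K4me1, the widest, the farthest, the 5 largest groups, the 8 genes with the most members and up to 4 leading genes of each list. A few listed genes and a stretch of sequence are not reported here. The members and the gene lists were chosen with earlier results of these data known. The background of all distal H3K4me1 intervals was chosen after the shares over the whole list had been seen, and both are given. On simulated data 600 of 600 planted overlaps were found, and for 5 lists the overlap counts were tested against bedtools 2.31.1, with 0 differences. Alternatives were the limits of the methods, other distances, widths, overlaps, windows and gaps. The analysis used pandas 2.3.3 and numpy 2.4.6 in Python 3.11.15, pyfaidx 0.9.0.4 and samtools 1.23.1 for sequence, scipy 1.17.1 for intervals and matplotlib 3.10.9 for plots.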

Additional observations from a re-analysis of the deposited data

How the results depend on the processing

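The members depend most on how weak a peak may be. With the limits of the methods in every list, the rule gave 479 regions, most of them not among the 9969 members. Weak H3K4me3 and H3K36me3 peaks then no longer excluded a region, and the set without H3K9Ac changed in the same way. These 479 regions had a median width of 3873 bp and median fold enrichments of 6.16 for H3K4me1 and 6.96 for H3K9Ac. Their shares were 30.9% with CTCF, 0.418% with H3K27me3, 24.6% with the AP-1 word, 33.6% inside a coding gene and 74.3% with H3K4me3 at the nearest gene. Their median TSS distance was 30033 bp and they formed 4 groups of 3 or more. Against intervals without H3K9Ac the differences were -14.9 percentage points for the AP-1 word, -16.5 for coding genes and 0.14 for H3K4me3 at the nearest gene. With limits on H3K4me1 and H3K9Ac alone, and both exclusions kept whole, there were 95 members. With weak H3K4me3 and H3K36me3 ignored, the shares were 30.3% for CTCF (difference 16.3), 33.8% for AP-1, 50.2% for coding genes and 78.3% for the nearest gene, with 595 groups. With H3K9Ac q-values below 1e-3, an alternative chosen after seeing the data, there were 3387 members, 31.9% with CTCF and 33.9% with AP-1.

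The AP-1 difference was 16.0 points in whole intervals (share 70.7%), where wide members offer more sequence. At widths of 1000 to 2000 bp (46.0%) it was 0.33, with a 95% interval that holds 0 (-1.94 to 2.59). It was -3.79 in the middle 1000 bp (54.2%) and -3.66 without CTCF, also chosen after seeing the data. Around the H3K9Ac middle the share was 37.5%. At widths of 1000 to 2000 bp the CTCF share was 24.2%, H3K27me3 2.93% (difference -1.48) and the nearest gene 75.8% (0.10). CTCF past its limits gave 21.96% (difference 12.01), 50% of the CTCF interval overlapped 23.01%, and H3K27me3 past its limits 0.421%. Beyond 10 kb from a TSS, 27.5% had CTCF and 44.8% lay in coding genes. With 50% of the H3K9Ac interval overlapped its median fold was 3.29. With 1 TSS per gene the median distance was 45781 bp. Gaps of 25000 bp gave 606 groups, against 337. Per 1000 members, a scale chosen after the counts were seen, there were 33.8 groups, and 12.1 and 60.8 at gaps of 5000 and 25000 bp. The cause was not tested. Of 79 alternatives, 31 stayed within their limits of change, 46 moved past them and 2, in the AP-1 difference, reversed. No paired analysis was possible because there are no replicates: a single library was made for each antibody.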
